A study of Mus musculus with 6 samples.

Results

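MHC class II molecules display peptides from proteins degraded in endosomes and lysosomes to CD4+ T cells. Expression of 6 genes of this pathway was described in mouse liver after delivery of the transcription factor TFEB. The genes were the class II chains H2-Aa, H2-Ab1 and H2-Eb1, the invariant chain Cd74, the peptide loading chain H2-DMa and the coactivator Ciita. They were chosen by symbol in the annotation of the array and had 10 of the 20380 probe sets with 1 gene symbol, or 6 of 12393 genes. The rule used symbols and no threshold on the values, but the genes were picked with earlier results of these data known.

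Each of the 6 livers came from a different wild-type mouse of C57 background aged 1 month, and each was measured on 1 array. An adenoviral vector had been injected into 3 of the mice. The labels call their samples TFEB-injected, and their livers are called injected livers here. The other 3 mice were not injected. No mouse given an empty vector was among the samples, so injection, vector and TFEB cannot be told apart. The labels do not give the promoter that drives the transgene or the time after injection. The series title states that TFEB was overexpressed in liver.

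A class II molecule is a pair of an alpha and a beta chain. The chains assemble with the invariant chain, encoded by Cd74, which blocks the peptide groove and directs the complex to endosomes. Lysosomal proteases, among them cathepsin S, then cut the invariant chain away, and the DM heterodimer exchanges its last fragment for peptides. Ciita encodes the coactivator on which transcription of these genes depends. It binds no DNA itself and is recruited by RFX and NF-Y proteins on the conserved X and Y boxes of class II promoters. In liver, class II is known mainly from Kupffer cells, dendritic cells, B cells and, at lower levels, sinusoidal endothelial cells. TFEB is known as an activator of lysosomal genes.

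Upstream sequences from the RefSeq table of GRCm38.p6 are described for 3 of the 6 genes, H2-Aa, H2-Eb1 and H2-DMa. Those of H2-Ab1, Cd74 and Ciita are not described. The 250 bases before the start of H2-Aa and H2-Eb1 are shown because both genes were higher in injected livers. Those of H2-Oa and H2-DMb2 are shown because neither of these class II genes was called higher. Both read near the lower quartile of the arrays, where a change could be missed. The sequence of H2-Aa is on the minus strand at chr17:34287824-34288073 and the others are on the plus strand, H2-Eb1 at chr17:34305617-34305866, H2-Oa at chr17:34092129-34092378 and H2-DMb2 at chr17:34144999-34145248. Capitals mark GCAAC, the core of the X box as it reads in several of these genes, and TGATTGG, which holds the inverted CCAAT letters of the Y box.
H2-Aa: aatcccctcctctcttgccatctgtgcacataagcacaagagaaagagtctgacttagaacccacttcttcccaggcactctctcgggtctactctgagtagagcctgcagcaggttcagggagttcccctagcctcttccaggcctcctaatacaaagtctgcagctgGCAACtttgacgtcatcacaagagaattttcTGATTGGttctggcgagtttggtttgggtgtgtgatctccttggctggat
H2-Eb1: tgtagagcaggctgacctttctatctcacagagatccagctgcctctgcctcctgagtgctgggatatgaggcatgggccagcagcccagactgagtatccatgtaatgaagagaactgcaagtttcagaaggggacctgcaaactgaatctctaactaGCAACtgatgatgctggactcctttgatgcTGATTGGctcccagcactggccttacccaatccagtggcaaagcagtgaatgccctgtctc
H2-Oa: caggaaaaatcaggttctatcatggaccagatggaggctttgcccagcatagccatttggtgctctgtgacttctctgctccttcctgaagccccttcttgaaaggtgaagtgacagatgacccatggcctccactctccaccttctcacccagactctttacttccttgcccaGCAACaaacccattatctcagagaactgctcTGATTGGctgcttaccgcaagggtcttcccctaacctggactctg
H2-DMb2: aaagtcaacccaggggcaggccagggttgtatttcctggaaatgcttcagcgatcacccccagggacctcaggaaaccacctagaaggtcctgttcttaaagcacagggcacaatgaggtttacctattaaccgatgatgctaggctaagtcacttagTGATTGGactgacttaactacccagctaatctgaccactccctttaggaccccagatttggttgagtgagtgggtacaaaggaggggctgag
In H2-Aa the letters GCAAC began at -81 and TGATTGG at -50, counted from the start of the transcript, with 26 bases between them. The gap was 25 bases in H2-Eb1 and 26 in H2-Oa, whereas H2-DMb2 held TGATTGG without GCAAC. Of the 2 windows of H2-DMa, that ending at chr17:34122831 held GCAAC on the minus strand and neither held TGATTGG. Both windows lie inside the listed span of the gene, chr17:34119693-34139101, and not directly before it. The window of H2-DMb2 also lies inside the span of its gene, chr17:34143229-34151553. Whether H2-DMa has the X and Y box letters outside these 2 windows was not tested. Over 32851 windows of the same length, searched on both strands, GCAAC was found in 29.9%, TGATTGG in 7.23%, and GCAAC followed by TGATTGG with 15 to 35 bases between them in 0.183%. The E-box letters CACGTG, the core of sites that TFEB is known to bind, were in 6.02% of windows. They were in none of the windows of H2-Aa, H2-Eb1, H2-DMa, H2-DMb1, H2-DMb2, H2-Oa, H2-Ob and H2-Eb2. No other class II window is described. The letters searched were chosen after the sequences had been read, and a match is a description of the sequence.

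Both chains of I-A, the measured beta chain of I-E and the invariant chain were higher in injected livers. Values are log2 expression as deposited, differences are injected minus not-injected means on that scale with the standard error of the fit, and the threshold of the test was an adjusted p of 0.05. Of the 6 genes 4 were called higher and 0 lower by limma with Benjamini-Hochberg adjustment over all genes, where 14.2% of all genes were called higher and 13.9% lower. The 4 genes were H2-Ab1, H2-Aa, H2-Eb1 and Cd74. The remaining pair, H2-DMa and Ciita, did not pass the test. The median difference of the 6 genes was 0.77, against -0.05 over all genes. Whole livers were measured, so more class II-bearing cells and more class II RNA per cell cannot be told apart.

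H2-Aa encodes the alpha chain of I-A. Its brighter probe set, 1435290_x_at, read 10.95, 10.63 and 10.67 in the not-injected livers and 11.75, 11.80 and 11.68 in the injected livers. The lowest injected liver lay 0.73 above the highest not-injected liver. H2-Aa rose 1.99-fold, from 10.75 ± 0.17 (SD, n = 3) to 11.74 ± 0.06 (SD, n = 3), a difference of 0.99 ± 0.10 (SE, limma adjusted p = 0.000597). The other probe set, 1452431_s_at, read 8.23, 7.94 and 7.98 without injection and 9.15, 9.32 and 8.91 with it. This was a rise of 1.07 ± 0.12 (limma adjusted p = 0.00111 over all probe sets), so both probe sets of the gene moved by nearly the same amount.

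H2-Ab1 encodes the beta chain that pairs with it. Probe set 1450648_s_at read 8.64, 8.37 and 8.28 in not-injected and 9.58, 9.64 and 9.45 in injected livers. H2-Ab1 rose 2.19-fold, from 8.43 ± 0.19 (SD, n = 3) to 9.56 ± 0.10 (SD, n = 3), a difference of 1.13 ± 0.11 (SE, limma adjusted p = 0.000513). Among all genes 2.33% rose by more. Its other probe sets were also called higher over all probe sets, 1451721_a_at by 0.83 ± 0.15 (limma adjusted p = 0.00612) and 1425477_x_at by 0.57 ± 0.11 (limma adjusted p = 0.0104). The size of the rise of H2-Ab1 therefore depended on the probe set, from 1.48-fold to 2.19-fold, while its direction did not. The suffixes _s_at and _x_at are Affymetrix marks for probe sets that can match more than 1 transcript, which class II genes of similar sequence make possible.

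H2-Eb1 encodes the beta chain of I-E. Its only probe set read 9.25, 8.93 and 8.96 without injection and 9.94, 9.96 and 9.90 with it. H2-Eb1 rose 1.85-fold (0.89 ± 0.09, limma adjusted p = 0.000872), and the injected livers differed among themselves by less (SD 0.03, n = 3) than the not-injected ones (SD 0.18, n = 3). Its partner, the alpha chain gene H2-Ea, is known to be inactive in C57BL/6 mice and is listed as a transcribed pseudogene in the RefSeq table. The brightest of its 3 probe sets, 1422891_at, read 8.06, 8.40 and 8.39 without injection and 8.14, 8.35 and 8.19 with it, a difference of -0.06 ± 0.11 (limma adjusted p = 0.724). The others, 1422892_s_at and 1426202_at, read 3.77 to 4.31 in all 6 livers, which is lower than the lower quartile of each array (5.46 or more).

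Cd74 read 8.31, 8.10 and 8.14 in not-injected and 8.84, 8.92 and 8.76 in injected livers. The groups lay 0.45 apart at their nearest arrays. Cd74 rose 1.58-fold (0.66 ± 0.08, limma adjusted p = 0.00154), with a 95% interval of 0.47 to 0.84 that is not adjusted for the number of genes.

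H2-DMa, the alpha chain of the peptide exchange factor DM, did not pass the test. It read 7.01, 6.55 and 6.66 without injection and 7.05, 7.08 and 6.99 with it, so that not-injected replicate 1 lay among the injected livers. The difference was 0.30 ± 0.12 (limma adjusted p = 0.0942; unadjusted 95% interval 0.03 to 0.58). Without not-injected replicate 1 it was 0.44 and passed (adjusted p = 0.0133), and without any other array it did not (adjusted p up to 0.266). Whether H2-DMa differed less than the class II chains was not tested.

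Ciita had probe sets that pointed opposite ways. Probe set 1421210_at read 5.75, 5.92 and 5.94 without injection and 5.99, 6.32 and 6.13 with it. All injected livers lay above all not-injected livers, but by as little as 0.05, and the difference of 0.28 ± 0.10 did not pass (limma adjusted p = 0.0756; unadjusted 95% interval 0.04 to 0.51). Probe set 1421211_a_at read 5.53, 5.68 and 5.97 against 5.60, 5.63 and 5.63, a difference of -0.11 ± 0.11 (limma adjusted p = 0.508 over all probe sets). Both probe sets read close to the lower quartile of the arrays (5.46 to 5.56), where RMA values are compressed. At these levels a change of Ciita was not settled in either direction.

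**Figure D1:**
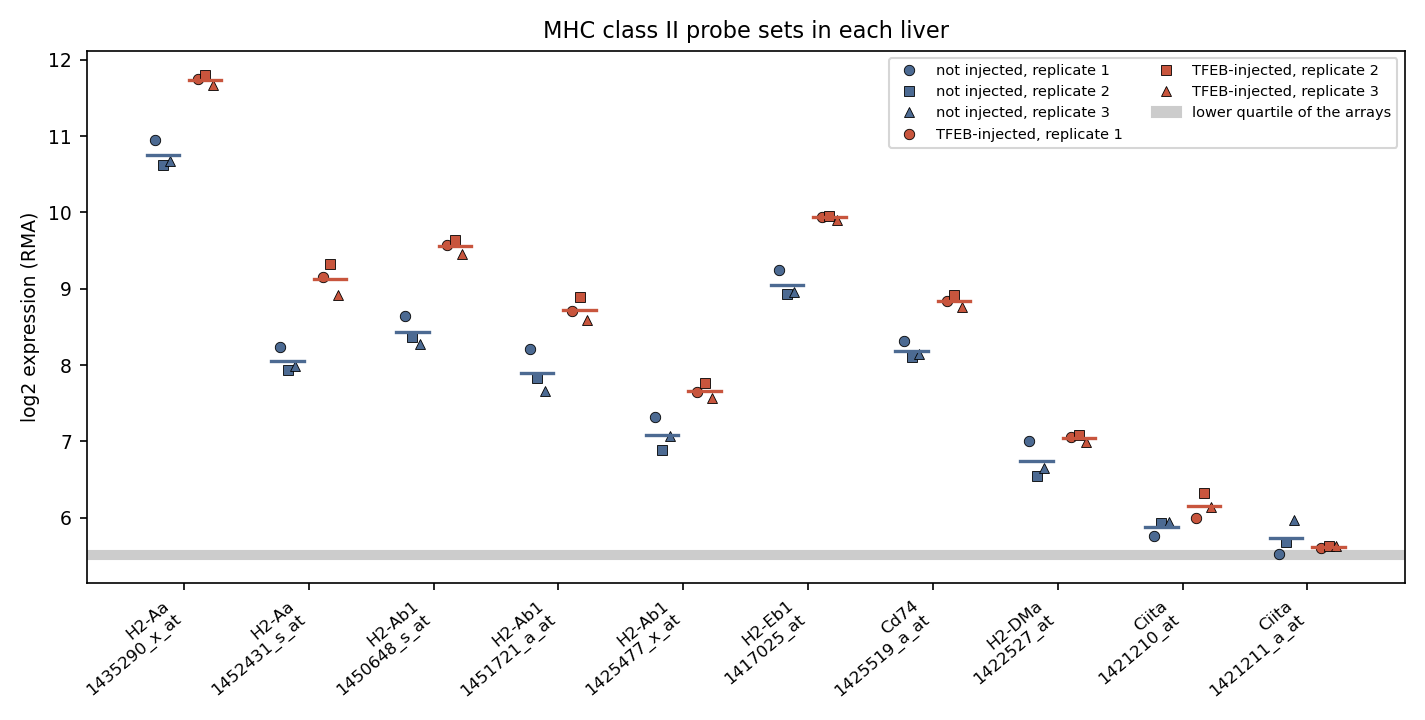
Log2 expression of the 10 probe sets of the 6 class II genes in each of the 3 not-injected (blue) and 3 TFEB-injected (red) livers, with the replicate given by the symbol, group means as lines and the range of the arrays' lower quartiles as a grey band. In 8 of the 10 probe sets every injected liver lies above every not-injected liver, and the probe sets of Ciita lie near the grey band.

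Over the probe sets, 7 of the 10 were called higher and 0 lower, against 12.9% of all probe sets called higher and 13.1% lower. Every injected array lay above every not-injected array in 8 of the 10, as in 18.7% of all probe sets. By gene this held for 5 of the 6, as in 20.1% of all genes. In either direction the groups did not overlap for 46.2% of all genes. An exact permutation test of 1 probe set with 3 arrays against 3 cannot go below a two-sided p of 0.1, and each of these 8 probe sets reached that value. H2-Aa, H2-Ab1, H2-Eb1 and Cd74 kept their calls when any of the 6 arrays was left out. Their differences then ran from 0.93 to 1.09 for H2-Aa, from 1.06 to 1.23 for H2-Ab1, from 0.83 to 0.99 for H2-Eb1 and from 0.62 to 0.72 for Cd74. In each of the 4 genes not-injected replicate 1 read highest of its group and injected replicate 2 highest of the injected livers.

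The other class II genes that could be measured did not pass the test. Of 7 listed, H2-Ea, H2-DMb2 and H2-Oa had a probe set with 1 symbol, and 0 of these 3 were called in either direction, against 28.1% of all genes. None of them had an unadjusted p under 0.05, and the result was the same count under the alternatives tried. The count says little about class II transcription. H2-Ea is the pseudogene described above, and H2-Oa had group means of 5.35 and 5.41, under the lower quartile of each array (5.46 or more). The group means of H2-DMb2, 6.01 and 5.87, were not far over it. H2-DMb2, a beta chain of DM, read 5.80, 6.13 and 6.10 without injection and 5.75, 6.10 and 5.77 with it (-0.14 ± 0.13, limma adjusted p = 0.45; unadjusted 95% interval -0.43 to 0.16). H2-Oa, the alpha chain of DO, which restrains DM, read 5.26 to 5.43 without injection and 5.34 to 5.52 with it (0.06 ± 0.08, limma adjusted p = 0.57). H2-DMb1 and H2-Ob shared their probe sets with another gene and were not analysed here.

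The class II chain genes lie near each other on chromosome 17 with genes of class I peptide supply among them. In the RefSeq gene order from H2-Oa to H2-Ea, 12 of 15 genes were measured. Of these 12 genes 3 were called higher and 1 lower, against 14.2% and 13.9% of all genes. Those called higher were the neighbours H2-Ab1, H2-Aa and H2-Eb1, and Brd2, a chromatin reader, was called lower (-0.29 ± 0.08, limma adjusted p = 0.0375), a call lost when any array but not-injected replicate 3 was left out (adjusted p up to 0.105). The peptide transporter genes Tap1 (-0.01 ± 0.07) and Tap2 (0.07 ± 0.07) and the immunoproteasome genes Psmb8 (-0.16 ± 0.15) and Psmb9 (0.04 ± 0.12), which lie between H2-DMb2 and H2-Ab1, did not pass. This set of neighbours was chosen after the values had been seen.

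**Figure D2:**
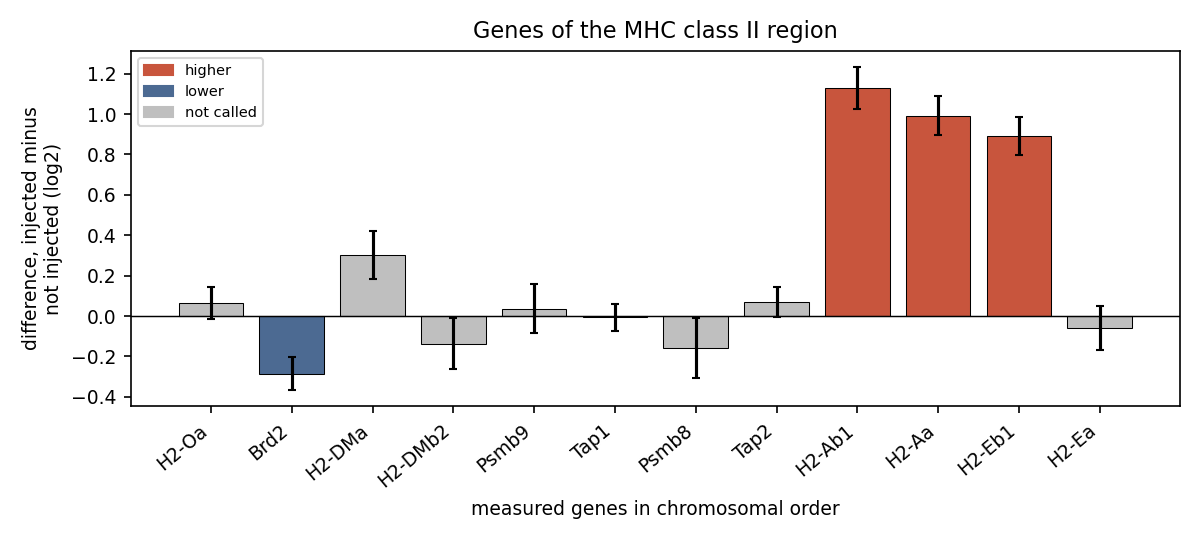
Difference between injected and not-injected livers on the log2 scale (bars, with standard errors) for the 12 measured genes from H2-Oa to H2-Ea in their order on the chromosome, not to distance. H2-Ab1, H2-Aa and H2-Eb1 are the bars called higher, at 1.13, 0.99 and 0.89, while the other bars lie between -0.29 and 0.30.

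Several lysosomal genes that process class II cargo were higher as well. Of 12 measured genes of antigen processing and class II turnover 7 were called higher and 0 lower, where 14.2% of all genes were called higher. The other 5, Ap1s1, Ap1m1, Ap2m1, Cd82 and Slc11a1, did not pass. The 12 genes' median difference was 0.75 against -0.05 over all genes. Ifi30, the lysosomal thiol reductase GILT that unfolds antigens, read 9.47, 9.12 and 9.23 without injection and 10.94, 10.38 and 11.22 with it. It rose 2.97-fold (1.57 ± 0.20, limma adjusted p = 0.00197). Legumain, the asparaginyl endopeptidase encoded by Lgmn, read 8.22, 8.02 and 7.86 against 9.91, 8.85 and 9.98 and rose by 1.54 ± 0.28 (limma adjusted p = 0.00745), a call lost without variance moderation (adjusted p = 0.0716). In Ifi30 and Lgmn injected replicate 2 was the lowest of the injected livers, whereas it was the highest in the 4 class II genes that rose. Whether the patterns of the 2 sets over the injected livers differ was not tested.

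Ctss, the cathepsin that makes the last cuts in the invariant chain of antigen-presenting cells, read 11.12, 10.78 and 10.76 without injection and 11.63, 11.50 and 11.28 with it. It rose by 0.58 on the log2 scale (SE 0.13, limma adjusted p = 0.0145), but the call was lost without not-injected replicate 2 (0.53, adjusted p = 0.0597), not-injected replicate 3 (0.52, adjusted p = 0.057) or injected replicate 1 (0.50, adjusted p = 0.0511). The cathepsin genes Ctsz (1.40 ± 0.07), Ctsb (1.42 ± 0.13) and Ctsl (0.92 ± 0.07) kept their calls when any of the 6 arrays was left out. Many cells besides antigen-presenting cells express these lysosomal proteases.

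**Figure D3:**
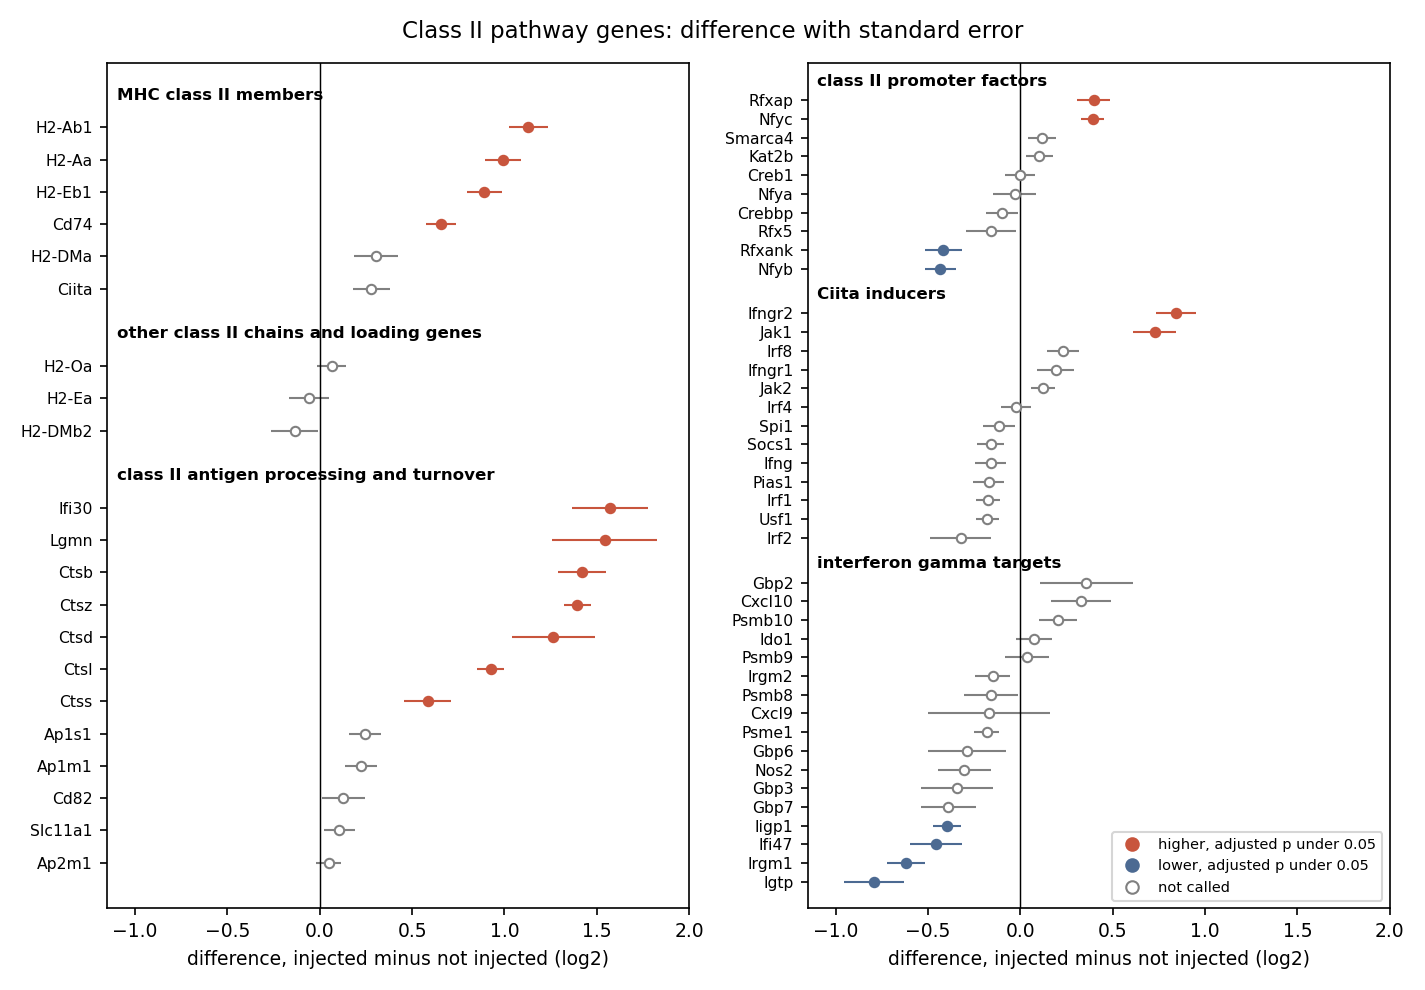
Difference between injected and not-injected livers on the log2 scale (points, with standard errors) for each measured gene of 6 lists, in red where called higher, blue where called lower and open grey where not called. H2-Ab1, H2-Aa, H2-Eb1 and Cd74 and 7 antigen processing genes lie to the right, while the called interferon gamma targets lie to the left, from -0.79 to -0.40.

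Of 10 measured genes for proteins that occupy class II promoters, 2 were called higher and 2 lower, with a median difference of -0.02. These counts are near the shares over all genes, 14.2% higher and 13.9% lower. In the RFX complex, which binds the X box, Rfxap read 0.40 ± 0.09 (limma adjusted p = 0.0158), Rfxank -0.42 ± 0.10 (limma adjusted p = 0.0207) and Rfx5 -0.16 ± 0.13 (limma adjusted p = 0.411). The Rfxap call was lost without not-injected replicate 2 or 3 or injected replicate 3 (adjusted p 0.054 to 0.064). The Rfxank call was lost without not-injected replicate 1 or 3 or injected replicate 1 or 3 (adjusted p 0.0519 to 0.063). Of the NF-Y subunits, which bind the Y box, Nfyc rose by 0.39 ± 0.06 (limma adjusted p = 0.00386), Nfyb fell by 0.43 ± 0.08 (limma adjusted p = 0.00878) and Nfya read -0.03 ± 0.12 (limma adjusted p = 0.86).

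Upstream of Ciita, interferon gamma acts through its receptor, the kinases JAK1 and JAK2 and the factor IRF1. Of 13 measured genes of this kind 2 were called higher and 0 lower, which for the higher calls is near the 14.2% over all genes. The receptor chain Ifngr2 rose by 0.84 ± 0.11 (limma adjusted p = 0.00174) and Jak1 by 0.73 ± 0.12 (limma adjusted p = 0.00464). Ifng, the gene of interferon gamma itself, did not pass (-0.16 ± 0.08, limma adjusted p = 0.189). Its group means, 4.09 without injection and 3.92 with it, lay under the lower quartile of each array, where a change could be missed. Irf1 read 9.88, 9.83 and 9.78 without injection and 9.64, 9.71 and 9.61 with it, a difference of -0.18 ± 0.06 that did not pass (limma adjusted p = 0.082). Irf1 was called lower when the arrays were quantile normalised again (adjusted p = 0.0422) and when the test was limited to the brighter genes, those whose mean reached the median of all (adjusted p = 0.0487). Without injected replicate 2 a gene of this list was called lower as well.

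Of 17 measured targets of interferon gamma other than class II genes, 4 were called lower and 0 higher, with a median difference of -0.18. Over all genes 13.9% were called lower and 14.2% higher. The 0 holds for this list alone, since Ifi30, H2-D1, H2-K1 and B2m, which interferon gamma is also known to induce, stood in other lists and were called higher. Usp18, which interferons induce and which was chosen after its values were seen, rose by 2.17 ± 0.14 (limma adjusted p = 0.00011). The 4 genes called lower encode GTPases of defence against intracellular microbes. Igtp read 9.57, 9.62 and 9.41 without injection and 8.47, 9.13 and 8.62 with it (-0.79 ± 0.16, limma adjusted p = 0.0117), and its call was lost without not-injected replicate 2 (adjusted p = 0.0505). Irgm1 fell by 0.62 ± 0.10 (limma adjusted p = 0.00492), Iigp1 by 0.40 ± 0.08 (limma adjusted p = 0.00832) and Ifi47 by 0.46 ± 0.14 (limma adjusted p = 0.0473). The groups overlapped in Ifi47, and its call was lost when any array but injected replicate 2 was left out (adjusted p 0.0703 to 0.142). Injected replicate 2 read highest of the injected livers in each of these 4 genes, and without it 7 targets were called lower. Without not-injected replicate 2 the number was 2. The other 13 targets did not pass.

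In the class I pathway 4 of 16 measured genes were called higher and 2 lower, with a median difference of 0.07. Over all genes 14.2% were called higher and 13.9% lower. The heavy chain genes H2-D1 (0.61 ± 0.09, limma adjusted p = 0.00327) and H2-K1 (0.39 ± 0.06, limma adjusted p = 0.00481) rose, H2-D1 by an amount between those of the 3 H2-Ab1 probe sets. H2-Q2 rose by 1.18 ± 0.14 (limma adjusted p = 0.00127), from a mean of 4.58, under the lower quartile of each array. Pdia3, which helps to load class I molecules, was lower (-0.25 ± 0.06, limma adjusted p = 0.0227), a call lost without any not-injected array or injected replicate 3 (adjusted p up to 0.0751). B2m, the light chain, was called at 0.19 ± 0.06 (limma adjusted p = 0.046) and lost its call when any array was left out (adjusted p 0.059 to 0.13). Class I heavy chains are similar in sequence, so their probe sets may share signal. Cd1d1, which presents lipids, was lower (-0.49 ± 0.12, limma adjusted p = 0.022), a call lost when any array but injected replicate 2 was left out (adjusted p up to 0.0734). The number of class I genes called lower was 0 without any not-injected array or injected replicate 3, and 1 without injected replicate 1. Of 10 costimulatory genes 1 was called higher and 0 lower, against the same 14.2% and 13.9% of all genes. It was Cd83, a surface protein that stabilises class II on the membrane, which read 5.56, 5.67 and 5.64 without injection and 6.28, 6.29 and 6.57 with it (0.76 ± 0.09, limma adjusted p = 0.00164). Without injected replicate 2 a costimulatory gene was also called lower.

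Markers of cells that can carry class II were counted against the same shares over all genes, 14.2% higher and 13.9% lower. Of 10 pan-leukocyte markers 4 were called higher and 0 lower, and the mean level of the list was 7.68 to 7.89 in not-injected and 8.06 to 8.23 in injected livers. Ptprc, which encodes CD45, read 8.73, 8.32 and 8.42 without injection and 9.39, 9.23 and 8.99 with it (0.71 ± 0.14, limma adjusted p = 0.00876), and Coro1a rose by 0.62 ± 0.10 (limma adjusted p = 0.00503). Both kept their calls when any array was left out, but Ptprc lost its call without variance moderation (adjusted p = 0.068). Laptm5 (0.53) and Cd52 (0.58) lost theirs without not-injected replicate 2 or 3 or injected replicate 1, which left 2 of 10. Leaving out single arrays gave 2 to 6 of these markers called higher. With the mean of its probe sets Laptm5 read 0.18 and did not pass (adjusted p = 0.076). Relative to the not-injected mean, the pan-leukocyte list stood at 0.47, 0.33 and 0.30 in injected replicates 1, 2 and 3, where the mean of H2-Aa, H2-Ab1, H2-Eb1 and Cd74 stood at 0.93, 0.98 and 0.85. The part of these markers in the class II result was not tested.

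Of 20 Kupffer cell and macrophage markers 7 were called higher and 3 lower. Their mean levels were 9.18 to 9.48 without injection and 9.31 to 9.47 with it, which include the large fall of Cd163. The median difference of the list was 0.26, against -0.05 over all genes. Leaving out single arrays gave 6 to 10 markers called higher and 2 to 4 lower. Lyz2, lysozyme of myeloid cells, rose by 0.93 ± 0.13 (limma adjusted p = 0.0025) and Mpeg1, a pore-forming protein of macrophages, by 0.72 ± 0.09 (limma adjusted p = 0.00145). The iron exporter Slc40a1 rose by 1.19 ± 0.09 (limma adjusted p = 0.000252) and the scavenger receptor Cd163 was lower by 3.62 ± 0.24 (limma adjusted p = 0.000122). The defining markers Adgre1 and Clec4f read 0.09 ± 0.14 and -0.11 ± 0.13 and did not pass (limma adjusted p = 0.666 and 0.539).

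Of 15 B cell markers 2 were called higher and 1 lower, near or under the shares over all genes, with mean levels of 6.11 to 6.21 without injection and 6.21 to 6.36 with it. Blnk, an adaptor of B cell receptor signalling, rose 8.25-fold (3.04 ± 0.15, limma adjusted p = 5.39e-05), whereas the immunoglobulin gene Ighm fell by 1.90 ± 0.38 (limma adjusted p = 0.00993), a call lost without variance moderation (adjusted p = 0.0837). Pou2af1 was called higher from levels under the lower quartile of each array, and its call was lost without any not-injected array or injected replicate 1. The B cell markers Cd79a (-0.09 ± 0.13) and Ms4a1 (0.40 ± 0.17) did not pass (limma adjusted p = 0.658 and 0.11). Of 12 dendritic cell markers 3 were called higher and 1 lower, with mean levels of 5.90 to 5.93 without injection and 5.99 to 6.10 with it. Called higher were Fscn1 (0.39 ± 0.11, limma adjusted p = 0.0344), Klrd1 (0.58 ± 0.16, limma adjusted p = 0.0353) and Cd209a (0.27 ± 0.08, limma adjusted p = 0.0405), and called lower was Batf3 (-0.49 ± 0.12, limma adjusted p = 0.0188). Klrd1 encodes CD94, a chain of NK cell receptors, and was counted in this list and not among the T and NK cell markers. With the mean of its probe sets Fscn1 read -0.04. Leaving out single arrays moved these counts to between 0 and 4 higher and between 0 and 1 lower. Without not-injected replicate 3 or injected replicate 1 the number called higher was 0. The defining markers Flt3 (0.02 ± 0.07) and Itgax (0.27 ± 0.12) did not pass (limma adjusted p = 0.858 and 0.129).

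Of 14 sinusoidal endothelial markers 6 were called higher and 0 lower, with mean levels of 8.51 to 8.64 without injection and 8.91 to 9.12 with it. Lyve1 rose by 2.10 ± 0.15 (limma adjusted p = 0.000201) and Flt4, a receptor for vascular growth factors, by 0.66 ± 0.07 (limma adjusted p = 0.000751). The scavenger receptor Stab2 rose by 0.96 ± 0.14 (limma adjusted p = 0.00319) and the Fc receptor Fcgr2b by 0.66 ± 0.12 (limma adjusted p = 0.00611). Leaving out single arrays moved the number called higher to between 4 and 8. Lyve1, Flt4, Stab2 and Fcgr2b kept their calls in each of these fits. Of 13 T and NK cell markers, a list without Klrd1, 0 were called in either direction, and Cd3e read -0.20 ± 0.07 (limma adjusted p = 0.0609). Of 11 markers of monocytes and neutrophils 1 was called higher and 0 lower. It was S100a8, which lost its call without any not-injected array (adjusted p 0.0912 to 0.143). Of 12 stellate cell markers 0 were called higher and 1 lower, Reln (-0.38 ± 0.11, limma adjusted p = 0.0419). Of 5 bile duct markers 0 were called, where Krt19 read -0.22, Krt7 0.00, Sox9 0.12, Cldn7 0.20 and Epcam 0.58, but without injected replicate 2 the numbers called higher in the stellate and bile duct lists were 4 and 3. Of the fits that left out an array, the stellate call was kept in those without not-injected replicate 1 or injected replicate 1, and without injected replicate 3 a T and NK cell marker was called higher. Without injected replicate 2 the number of monocyte and neutrophil markers called higher was 3. Of 8 hepatocyte markers 1 was called higher, Apob (0.29 ± 0.07, limma adjusted p = 0.0246), which lost its call without not-injected replicate 1 or 3 or injected replicate 1 or 3. Without injected replicate 1 or 2 a hepatocyte marker was called lower. Ttr (0.02), Ahsg (0.04), Apoa1 (-0.10), Serpina1b (-0.14), Fgb (-0.21) and Hnf4a (-0.21) did not pass. Alb, which encodes albumin, read 15.03 to 15.09 in all 6 livers.

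**Figure D4:**
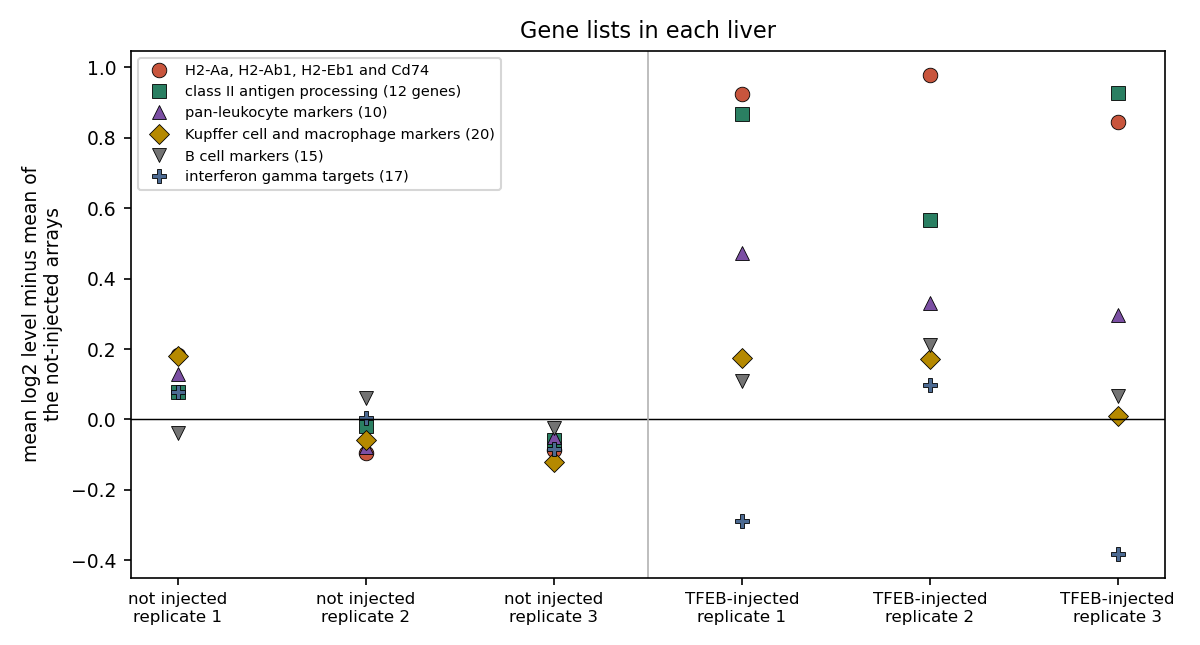
Mean log2 level of 6 gene lists in each of the 6 livers, given as the difference from the mean of the not-injected livers. The 4 class II genes lie between 0.85 and 0.98 in the injected livers, the antigen processing genes are lowest in injected replicate 2, and the pan-leukocyte markers lie between 0.30 and 0.47.

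By the root mean square difference from the mean profile of H2-Aa, H2-Ab1, H2-Eb1 and Cd74 over the 6 arrays, each profile taken relative to its not-injected mean, the most similar genes outside the 6 were Enpp5 (0.071), Nsmce2 (0.079), Spp2 (0.082), Lyz2 (0.085) and Gtf2h1 (0.086). Lyz2 was the one of these 5 that was on a marker list. H2-Eb1 itself lay 0.031 and H2-Aa 0.055 from that profile, H2-Ab1 0.153 and Cd74 0.187, H2-DMa 0.437 and Ciita 0.484. The profile is dominated by the difference between the groups, which many genes share.

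Arrays correlated across probe sets at 0.992 or more within each group and at 0.975 to 0.988 between groups. The spike-in controls were lower on injected arrays, with a median difference of -0.32 over 18 hybridisation controls and -0.44 over 24 poly-A controls. A difference in labelling or hybridisation between the groups cannot be told apart from injection. Tfeb itself read 7.47 to 7.59 in the not-injected and 7.46 to 7.78 in the injected livers (0.05 ± 0.10, limma adjusted p = 0.716). Whether its probe set can detect the transgene is not stated in the labels, so Tfeb does not check them.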

How the data were processed

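The authors deposited log2 values, 1 for each probe set and array. Per the submitters' processing notes they were made with affy and RMA, whose versions are not given. RMA corrects background, quantile normalises the arrays and summarises the probes of each set. Filters are not given in the sources used here. No detection calls came with the values.

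Of 22690 probe sets, 20380 had 1 gene symbol in the platform annotation. Each gene was represented by its brightest probe set over the 6 arrays. Differences were fitted with limma 3.58.1 (R 4.3.3, lmFit and eBayes, two-sided, prior degrees of freedom 3.47) over 12393 genes, and separately over all probe sets, with Benjamini-Hochberg adjustment and a threshold of 0.05. The samples of a group are biological replicates, per the labels. The script was tested on simulated data. Lists are described by counts and medians, with no set test. Python 3.11.15, scipy 1.17.1 and matplotlib 3.10.9 served for tables, exact tests and plots.

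The members and lists were chosen with earlier results of these data known. Named were the 6 members, lists of 8 or fewer measured genes, up to 4 called genes with the smallest p in larger lists, a fixed set of proteases, promoter factors and defining markers, Tfeb, and the 5 genes with the most similar profile. Nfya, Ifng, Pdia3, B2m, Usp18, the members of the processing list that did not pass, and the neighbours of the class II genes were named after their values were seen. Results were recomputed with a replicate block, with an intensity trend, without moderation, on brighter genes (those at or over the median of gene means), on probe set means, on single probe sets, after quantile normalising again, after median centring, with array weights and without each array in turn.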

Additional observations from a re-analysis of the deposited data

How the results depend on the processing

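H2-Aa, H2-Ab1, H2-Eb1 and Cd74 were called higher under all 14 alternatives of the gene fit, with adjusted p-values up to 0.0222, which they reached without variance moderation. With the mean of all probe sets H2-Ab1 read 0.84. The number of the 6 genes called higher was 4 to 5 and of their probe sets 7 to 8 when single arrays were left out. H2-DMa passed with array weights (0.34, adjusted p = 0.0412) and ran from 0.21 to 0.44 over the fits that left out an array. Ciita passed when the arrays were quantile normalised again (0.31, adjusted p = 0.0432), was lowest with the mean of its probe sets (0.09, adjusted p = 0.512), and its probe set 1421211_a_at read -0.11. The cause of these shifts was not tested. Without any moderation 1881 genes were called in place of 3486, with 4 antigen processing genes higher, 1 promoter factor higher and 1 lower, 1 Ciita inducer lower, 2 interferon gamma targets lower and 1 class I gene lower. Of the markers it then called 1 pan-leukocyte, 3 Kupffer cell and macrophage, 0 dendritic, 1 B cell and 3 sinusoidal endothelial genes higher, 0 B cell genes lower, and 0 monocyte and neutrophil, stellate or hepatocyte genes in either direction. The number of Ciita inducers called lower was 2 among the brighter genes and when the arrays were quantile normalised again, and 1 with the mean of all probe sets and with every probe set fitted. Costimulatory genes gave 2 lower with array weights and 2 higher with every probe set fitted. Leaving out single arrays gave 1973 to 4378 called genes, 1 to 2 promoter factors higher and 1 to 2 lower, 0 to 1 Ciita inducers lower, 2 to 7 interferon gamma targets lower, 0 to 2 class I genes lower and 0 to 1 costimulatory genes lower. With the replicate block 3348 genes were called and Ciita passed (0.28, adjusted p = 0.0434), while the calls of the other 5 genes were as before. Same-numbered arrays correlated in their deviations from the group means at 0.136, 0.057 and 0.011 across genes, not-injected replicate 2 correlated best with another number (0.077), and the numbers were not taken as a pairing. The number of arrays limits the precision, and levels near the lower quartile give little information on Ciita, H2-Oa and H2-DMb2.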
